A study of Sus scrofa with 24 samples.

Results

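Coconut oil was set against beef tallow as the dietary fat of barrows, which are castrated male pigs, and gene expression was read in longissimus dorsi, the long muscle of the loin. The comparison held 6 of the 24 pigs of the study, chosen by their labels alone. Pigs 15, 20 and 23 were barrows fed coconut oil, and pigs 16, 21 and 24 were barrows fed beef tallow. All were Landrace × Large White × Duroc crossbreds that weighed about 71 kg at about 130 days of age when they were put on the diets, and each fat made up 3.0% of the feed. The other 18 pigs were 3 barrows each on olive oil and soybean oil, and 3 gilts, young females, on each of the 4 fats. Total RNA of each pig was hybridised to 1 Affymetrix array after amplification from the 3′ end, and each value is the signal of a probe set in linear units. All 23999 probe sets other than controls were taken, and the 14399 whose mean signal over the 24 pigs reached the 40th percentile, a signal of 94.1, were tested. The labels describe 24 pens of 3 pigs, but the pen of each sampled pig and the time on the diets are not given in the sources used here. The p-values therefore measure the spread between pigs and do not allow for pens.

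Coconut oil consists mostly of saturated fatty acids of medium chain length, above all lauric acid, which are readily taken to the liver and oxidised. Beef tallow consists mostly of long-chain fatty acids, above all oleic, palmitic and stearic acid. Loin muscle is a mixture of muscle fibres with connective tissue, in which fibroblasts lay down collagen, and with fat cells between the fibre bundles, which make and store triglyceride and give the meat its marbling. RNA of the whole tissue is a sum over these cells, so fewer cells of a type and less RNA per cell cannot be told apart.

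With coconut oil, COL1A2, a chain of type I collagen, fell by 2.34 ± 0.50 log2 units, and FKBP10, a folding enzyme of collagen, fell by 1.91 ± 0.33 (SE, n = 3 pigs per fat). The fatty acid binding protein of fat cells, FABP4, fell by 1.44 ± 0.38, and CHRNA1, part of the muscle receptor for acetylcholine, fell by 2.72 ± 0.53. NR4A3, a nuclear receptor that is induced by exercise and hormones, rose by 2.47 ± 0.60. All differences are those of log2(signal + 1), coconut oil minus beef tallow, with the SE of the fit. That SE uses the spread within all groups of the 24 pigs and need not match the spread of the 6 barrows compared. Signals per pig are given in the order of pigs 15, 20 and 23 and of pigs 16, 21 and 24. By limma's moderated test with Benjamini-Hochberg adjustment, 303 probe sets (2.10%) passed an adjusted p of 0.05, of which 51 (0.354%) were higher and 252 (1.75%) lower with coconut oil. Their largest log2 differences were 2.94 and -4.44, and 220 of the 303 differed by more than 1 log2 unit, a change of 2-fold. The smallest adjusted p was 0.0254, so the calls lie close to the threshold. Of the 303, 146 carried 1 gene symbol and stood for 136 genes, 18 higher and 118 lower, while 157 had no symbol or several and are not named here. In 300 of the 303 the 3 coconut oil barrows lay wholly above or wholly below the 3 beef tallow barrows, against 4012 of all 14399 (27.9%). Since the calls were made on these same pigs, this share is a description and no support for the calls.

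The number of calls depended on single pigs. Without 1 of the coconut oil barrows 15, 20 and 23 the fit called 3, 2 and 0 probe sets, and without 1 of the beef tallow barrows 16, 21 and 24 it called 0, 0 and 509. Each of the 303 lost its call in at least 1 of these 6 fits, and all 303 kept their sign in all 6. The balance of higher against lower calls also depended on how arrays were scaled. The median signal of an array was 143 ± 5.03 in coconut oil barrows, against 166 ± 6.60 in beef tallow barrows (SD, n = 3 each), with no overlap (two-sided exact permutation p = 0.1, the smallest that 3 against 3 allows). Over all probe sets tested, the median log2 difference was -0.07 as deposited and 0.14 after each array was centred on its median, a shift of 0.22. With that centring 389 probe sets were called, 268 higher and 121 lower, and 172 of them were among the 303. All 51 higher and all 252 lower calls kept their direction after centring. The plot of counts by setting shows how far the number of calls moved.

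**Figure D1:**
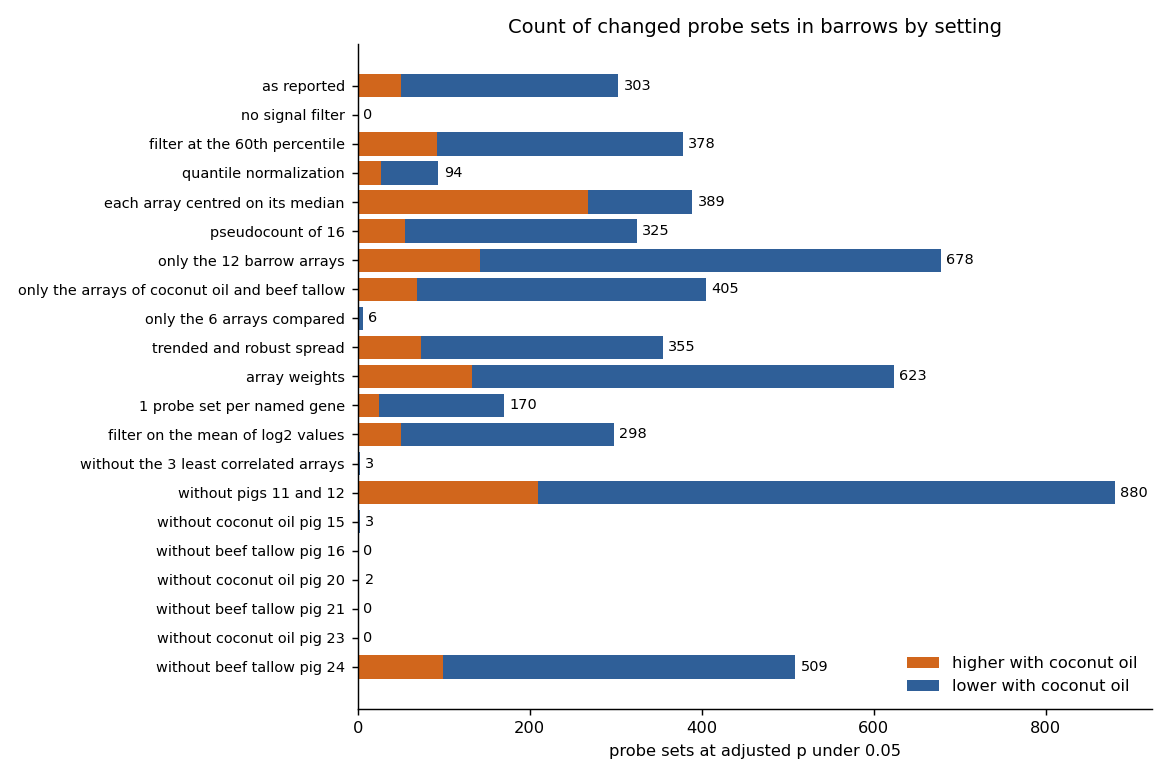
Number of probe sets past an adjusted p of 0.05 in barrows (x axis) under each setting (y axis), split into those higher (orange) and lower (blue) with coconut oil. The count was 303 as reported, 0 without pig 16, 21 or 23, and 389 with mostly higher calls after median centring.

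As a check of labels and tissue, the Y-linked gene EIF1AY had signals of 1649 to 2148 in the 12 barrows, against 3.71 to 33.0 in the 12 gilts. The muscle fibre markers CKM and MYH7, a creatine kinase and the slow myosin heavy chain, summed to 80589.5 to 104260.2 in coconut oil barrows, against 69846.5 to 105931.9 in beef tallow barrows. Correlations of log2 signals were 0.9583 to 0.9596 among coconut oil barrows, 0.9347 to 0.9478 among beef tallow barrows, and 0.9086 to 0.953 between the groups. RNA integrity, read as signal at the 3′ end of GAPDH and actin over that at the 5′ end, overlapped between the groups (two-sided exact permutation p between 0.2 and 0.9 over 4 ratios). Pig 16, a beef tallow barrow, nevertheless lay at an end of the range of all arrays in each of the 4 ratios. In log2 units its actin ratios, -0.08 and 1.84, were the highest of any array. Its GAPDH ratios were the highest at 0.32 and the lowest at -0.40. In the latter ratio pig 11, a gilt on soybean oil, stood much further from the other arrays, at 0.71. Whether these ratios bear on the calls was not tested.

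Of the 21 tested genes for fibrillar collagens and matrix proteins, 7 fell and 0 rose, against 107 (2.00%) lower and 12 (0.224%) higher of the 5356 named genes with 1 probe set each. All 21 log2 differences were below 0, against 58.2% of the 5356 genes, and the list's median was -1.14 against -0.08 over the 5356 genes. In 18 of the 21 all 3 coconut oil barrows lay below all 3 beef tallow barrows, which held for 19.6% of the 5356 genes. COL1A2 encodes an alpha chain of type I collagen, the main collagen of the connective tissue of muscle, and its signals were 778, 659 and 781 in coconut oil barrows, against 9662, 4788 and 1134 in beef tallow barrows. Pigs 16 and 21 were far above the others, and pig 24 lay nearest to the coconut oil barrows without overlapping them. The log2 signal averaged 9.53 ± 0.14 in coconut oil barrows and 11.87 ± 1.57 in beef tallow barrows (SD, n = 3 each), so COL1A2 fell by 2.34 ± 0.50 (SE) log2 units (limma adjusted p = 0.0331).

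COL5A1, a chain of type V collagen, which starts and limits the growth of collagen fibrils, had signals of 1179, 1406 and 1221 in coconut oil barrows, against 3166, 3061 and 2552 in beef tallow barrows. Here the groups were apart with less spread, and the gene fell by 1.20 ± 0.28 log2 units (limma adjusted p = 0.0362). Decorin, the small proteoglycan DCN that binds collagen fibrils, gave 13699, 12856 and 9902 in coconut oil barrows, against 36705, 23029 and 19769 in beef tallow barrows. The groups did not overlap, and the highest signal was that of a beef tallow barrow, pig 16. DCN fell by 1.09 ± 0.24 (limma adjusted p = 0.0346), and fibrillin FBN1, of the elastic microfibrils, fell by 0.88 ± 0.22 (limma adjusted p = 0.0435). Among adhesive glycoproteins, thrombospondin THBS1, which also activates latent TGF-beta, had signals of 646, 1001 and 962 in coconut oil barrows, against 5554, 5575 and 1544 in beef tallow barrows. The lowest beef tallow barrow, pig 24, was above the highest coconut oil barrow, and THBS1 fell by 2.09 ± 0.52 (limma adjusted p = 0.0444). Of the remaining members that passed, fibronectin (FN1) fell by 1.14 ± 0.29 and dermatopontin (DPT) fell by 1.46 ± 0.37 log2 units (limma adjusted p = 0.0449 and 0.0466). Periostin (POSTN), a matrix protein of wounds and tendons, differed by -1.81 ± 0.52 (limma adjusted p = 0.0688) and did not pass, nor did the type III collagen chain COL3A1 at -0.43 ± 0.55 (limma adjusted p = 0.694).

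Of the 12 tested fibroblast markers, 5 fell, against 2.00% of the 5356 genes, and 0 rose, with a median of -1.21 against -0.08. SFRP1, a secreted protein that binds Wnt ligands, had signals of 149, 99.6 and 127 in coconut oil barrows, against 955, 1148 and 308 in beef tallow barrows. Each beef tallow barrow was above each coconut oil barrow, and SFRP1 fell by 2.49 ± 0.58 (limma adjusted p = 0.0362), with a like difference of -2.21 on its other probe set. THY1, a surface protein of fibroblasts, gave 2425, 3434 and 2697 in coconut oil barrows, against 8091, 6770.2 and 4921 in beef tallow barrows, again without overlap, and fell by 1.19 ± 0.25 (limma adjusted p = 0.0295). IGFBP6, which binds insulin-like growth factors, fell by 1.62 ± 0.38, and the fibroblast surface protease FAP fell by 1.39 ± 0.33 (limma adjusted p = 0.0362 and 0.0362). MFAP5, a microfibril protein, fell by 1.56 ± 0.39 (limma adjusted p = 0.0444). The transcription factor PRRX1 and the receptor PDGFRB, also on the list, stood at 0.34 ± 0.38 (limma adjusted p = 0.65) and -0.25 ± 0.24 (limma adjusted p = 0.586).

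Collagen chains are folded, hydroxylated and cross-linked on their way out of the cell, and 2 of 11 tested genes of these steps fell, while all 11 differences were negative (median -0.70), against 2.00% and 58.2% of the 5356 genes. FKBP10, a prolyl isomerase of the endoplasmic reticulum that type I collagen needs for folding, had signals of 196, 155 and 184 in coconut oil barrows, against 1013, 669 and 444 in beef tallow barrows. The 3 coconut oil barrows lay close together, and the lowest beef tallow barrow, pig 24, was above them all. It fell by 1.91 ± 0.33 log2 units (limma adjusted p = 0.0254). Its relative FKBP14 fell by 1.39 ± 0.34 (limma adjusted p = 0.0435), while FKBP7 and FKBP9 differed by -1.27 ± 0.34 (limma adjusted p = 0.0522) and -0.91 ± 0.25 (limma adjusted p = 0.0553) and did not pass. Of the 6 genes of the basement membrane, the sheet that wraps each fibre, 2 fell and all 6 had coconut oil barrows wholly below (median -0.78), against 2.00% and 19.6% of the 5356 genes. The members that fell were nidogen NID2, at 645, 589 and 682 in coconut oil barrows, against 1719, 1835 and 1134 in beef tallow barrows, and the laminin chain LAMB1. NID2 fell by 1.26 ± 0.28 and LAMB1 fell by 0.95 ± 0.21 (limma adjusted p = 0.0346 and 0.0346), and the type IV collagen chain COL4A2 stood at -1.02 ± 0.30 (limma adjusted p = 0.0721). Among 11 matrix proteases and their inhibitors, 2 fell on their brightest probe sets, against 2.00% of the 5356 genes called lower. MMP2, a gelatinase, fell by 1.26 ± 0.32, and cathepsin K (CTSK), a collagen-degrading protease, fell by 1.39 ± 0.36 (limma adjusted p = 0.0444 and 0.0457), whereas the inhibitors TIMP2 and TIMP3 differed by -0.80 ± 0.23 (limma adjusted p = 0.0665) and -0.75 ± 0.22 (limma adjusted p = 0.0741), although another probe set of TIMP3 passed, at -0.95.

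**Figure D2:**
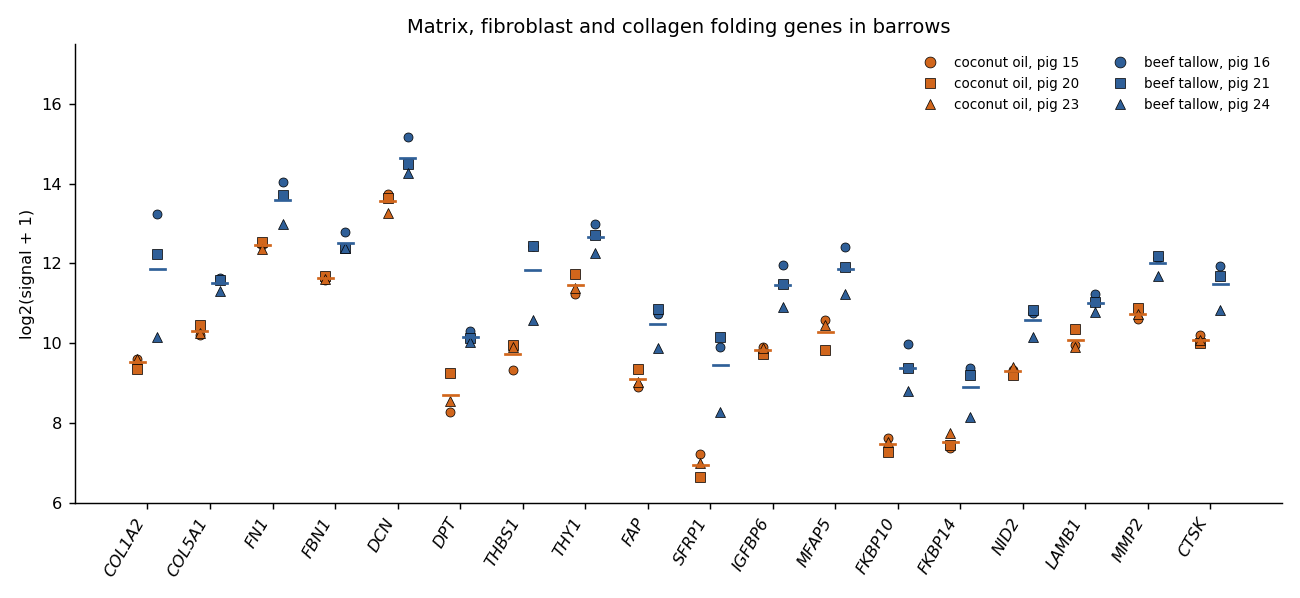
Log2(signal + 1) on the y axis of 18 genes of matrix, fibroblasts and collagen folding that fell, on the x axis, in coconut oil barrows (orange, left of each pair) and beef tallow barrows (blue, right). Each symbol is a pig and each line a group mean; pig 24, the blue triangle, is often the beef tallow barrow nearest to the coconut oil barrows, as in COL1A2.

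Markers of the cell types of the tissue differed to unequal extents. Of 6 defining markers each, 4 were tested for fibroblasts (THY1, COL3A1, DCN and LUM) and 4 for fat cells, and none was at 0. The fibroblast markers are members of the lists above, so their sum is no separate measure. The summed signal of the fibroblast markers was 16783.9 to 20004.5 in coconut oil barrows, against 30476.3 to 50598.4 in beef tallow barrows, and that of the adipocyte markers was 8100.3 to 8418.9 in coconut oil barrows, against 18338.3 to 27351.5 in beef tallow barrows. Sums of 4 leukocyte markers (4496.3 to 6688.3 in coconut oil barrows and 6086.1 to 10196.3 in beef tallow barrows), of 4 endothelial markers (4312.5 to 4851.8 in coconut oil barrows and 4097.7 to 6526.7 in beef tallow barrows) and of 2 smooth muscle markers (9179.0 to 15640.9 in coconut oil barrows and 8149.1 to 18206.5 in beef tallow barrows) overlapped. The part of cell composition in the results was not tested. By limma no member passed among 18 leukocyte genes (median -0.36, 0 at an unadjusted p under 0.05), 12 endothelial genes (median -0.21, or 0.00 after median centring, 2 at an unadjusted p under 0.05) or 7 genes of smooth muscle and pericytes (median -0.30, 1 at an unadjusted p under 0.05). Interferon-induced genes, which defend against viruses, had a median of -0.63, with 19 of 21 below 0, against 58.2% of the 5356 genes. None passed the threshold and 4 had an unadjusted p under 0.05, near the 21.2% of all probe sets. The summed signal of 2 red cell markers was 831.7 to 974.7 in coconut oil barrows, against 991.0 to 1103.8 in beef tallow barrows.

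Of 17 tested adipocyte and lipid droplet genes, 1 fell (2.00% of the 5356 genes did) and 0 rose, with a median of -0.95, and 9 had the coconut oil barrows wholly below, against 19.6% of the 5356 genes. The list was not uniform, with 13 differences below 0 and 4 above, and 1 gene had the coconut oil barrows wholly above. By limma 9 were lower and 2 higher at an unadjusted p under 0.05, against 21.2% of all probe sets in either direction. The gene that passed was FABP4, the fatty acid carrier of fat cells, with signals of 5114, 5384 and 5205 in coconut oil barrows, against 12619, 16802 and 13609 in beef tallow barrows. The coconut oil barrows lay close together and under the lowest beef tallow barrow, and FABP4 fell by 1.44 ± 0.38 log2 units (limma adjusted p = 0.049). Adiponectin (ADIPOQ), a hormone made by fat cells, gave 746, 324 and 1221 in coconut oil barrows, against 3252, 8017 and 2335 in beef tallow barrows. Its groups did not overlap either, yet the difference of -2.56 ± 0.82 (limma adjusted p = 0.09) did not pass. The SD of its log2 signal was 0.97 in coconut oil barrows and 0.92 in beef tallow barrows. PPARG, the receptor that drives fat cell formation, differed by -1.64 ± 0.56 (limma adjusted p = 0.11), lipoprotein lipase (LPL), which frees fatty acids from blood lipids, by -0.95 ± 0.29 (limma adjusted p = 0.078), and the retinol carrier RBP4 by -2.70 ± 0.83 (limma adjusted p = 0.0794). The fat hormone leptin (LEP) overlapped between the groups, at -0.30 ± 0.35 (limma adjusted p = 0.666). The summed adipocyte markers given above are no separate measure, since FABP4 and ADIPOQ are 2 of the 4, and the other 2, LEP and the serine protease CFD, did not pass (CFD at -0.37, limma adjusted p = 0.415).

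Of the 13 genes that build fatty acids and triglyceride, 1 fell, against 2.00% of the 5356 genes, and the list's median was -0.92. That gene was FADS1, the delta-5 desaturase of polyunsaturated fatty acid synthesis, at 65.5, 86.7 and 57.5 in coconut oil barrows, against 171, 169 and 127 in beef tallow barrows. All 3 coconut oil barrows lay below the signal of 94.1 used as the filter, and FADS1 fell by 1.15 ± 0.24 (limma adjusted p = 0.0309), or fell by 0.71 with values below the filter raised to it. The largest differences of the list did not pass. Fatty acid synthase (FASN) had signals of 313, 261 and 1829.8 in coconut oil barrows, against 2109, 8929 and 3948 in beef tallow barrows, without overlap, for a difference of -2.98 ± 0.82 (limma adjusted p = 0.0598). Pig 23 was the highest coconut oil barrow, just under pig 16. The stearoyl-CoA desaturase SCD, which makes oleic acid, had 286, 286 and 5596 in coconut oil barrows, against 2380.2, 21572 and 7590.2 in beef tallow barrows. Its groups overlapped, since pig 16 lay below pig 23, and the difference was -3.24 ± 1.13 (limma adjusted p = 0.114). The elongase ELOVL6 stood at -2.45 ± 0.77 (limma adjusted p = 0.0859), also with overlap, and the citrate carrier SLC25A1, which feeds carbon to fatty acid synthesis, at -1.00 ± 0.29 (limma adjusted p = 0.0667). The plot of levels by fat shows FASN and FADS1 beside the other genes in all 12 barrows.

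**Figure D3:**
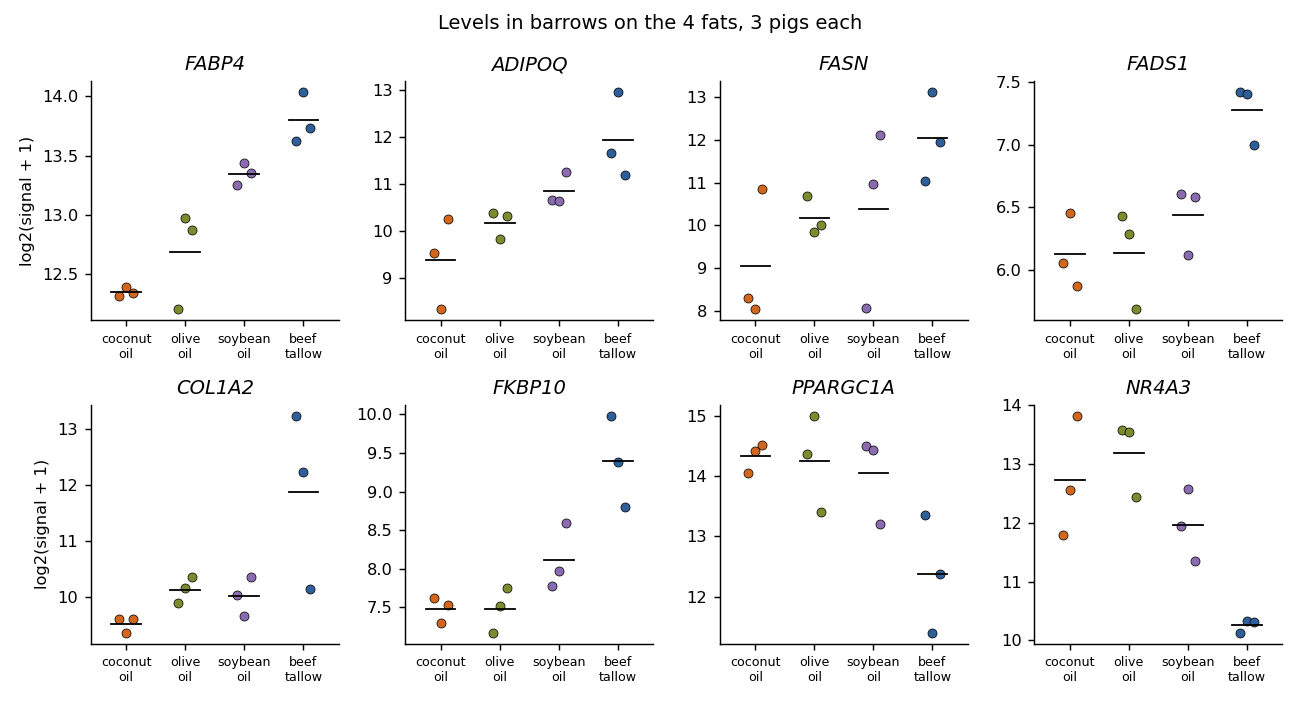
Log2(signal + 1) (y axis) of 8 genes in barrows on coconut oil, olive oil, soybean oil and beef tallow (x axis). Each point is a pig, with 3 per fat, and each line is the mean of a fat; the means of FABP4 and COL1A2 are lowest with coconut oil and highest with beef tallow, and that of NR4A3 is lowest with beef tallow.

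HK1, the hexokinase that starts glucose use in many tissues, was the single member of 19 glycolysis and glycogen genes that passed. It fell by 1.29 ± 0.30 (limma adjusted p = 0.0362), while the list's median was 0.12. Over the 5356 genes, 2.00% were called lower. In the pentose phosphate pathway, which yields NADPH and ribose, 3 of 4 tested genes fell, against 2.00% of the 5356 genes called lower. The pathway was taken up after its values were seen, so this count is a description. Transketolase (TKT) had signals of 338, 431 and 495 in coconut oil barrows, against 1349, 2338 and 914 in beef tallow barrows. It fell by 1.77 ± 0.45 log2 units, phosphogluconate dehydrogenase (PGD) fell by 1.49 ± 0.34 and transaldolase (TALDO1) fell by 1.00 ± 0.25 (limma adjusted p = 0.0454, 0.0362 and 0.0435), and the isomerase RPIA stood at 0.02 ± 0.17 (limma adjusted p = 0.966). PSAT1, an enzyme of serine synthesis, gave 337, 318 and 404 in coconut oil barrows, against 1518, 2734 and 844 in beef tallow barrows. The groups did not overlap, and PSAT1 fell by 2.11 ± 0.47 (limma adjusted p = 0.0346). SAT1, which acetylates polyamines for breakdown, fell by 1.11 ± 0.29 (limma adjusted p = 0.0469). These were the 2 of 20 amino acid and one-carbon genes that passed, against 2.00% of the 5356 genes called lower, and the list's median was 0.03. Of 11 cholesterol genes none passed by limma (median -0.17, 3 lower at an unadjusted p under 0.05, against 21.2% of all probe sets in either direction).

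By limma no gene passed among 23 genes of fatty acid oxidation, 22 of the tricarboxylic acid cycle, 33 of oxidative phosphorylation or 10 PPAR targets. Of them, 4, 3, 1 and 2 had an unadjusted p under 0.05, against 21.2% of all probe sets. The medians of the 4 lists were above 0, at 0.36, 0.34, 0.18 and 0.34. Of the oxidative phosphorylation genes 32 of 33, and of the cycle genes 20 of 22, had positive differences, against 41.8% of the 5356 genes. Median centring, which moved the median of all probe sets by 0.22, put the 4 list medians at 0.57, 0.55, 0.39 and 0.56. Quantile normalization put them at 0.27, 0.19, 0.07 and 0.26, with the median of all probe sets at 0.03. PPARGC1A, the coactivator that drives formation of mitochondria, had signals of 16978, 21716 and 23501 in coconut oil barrows, against 10430.1, 2699.9 and 5308 in beef tallow barrows. The coconut oil barrows were wholly above, yet the difference of 1.95 ± 0.63 (limma adjusted p = 0.09) did not pass. CPT1B, which lets fatty acids into mitochondria, and PDK4, which spares glucose, stood at 0.28 ± 0.38 (limma adjusted p = 0.72) and 0.11 ± 0.28 (limma adjusted p = 0.864), and the uncoupling protein UCP3 at 0.48 ± 0.51 (limma adjusted p = 0.627). With the smallest p among the oxidation genes stood ETFDH, which passes electrons on from fatty acid oxidation, at 0.72 ± 0.22 (limma adjusted p = 0.0762), and the carnitine acetyltransferase CRAT at 0.79 ± 0.26 (limma adjusted p = 0.0934).

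NR4A3, an orphan nuclear receptor, was 3569, 6062 and 14527 in coconut oil barrows, against 1119, 1291 and 1269 in beef tallow barrows. All coconut oil barrows were above all beef tallow barrows, with pig 23 highest, and NR4A3 rose by 2.47 ± 0.60 log2 units (limma adjusted p = 0.0404), with 2.94 on its other probe set, which also passed. It was the 1 gene that passed of 17 immediate early genes (median 0.07), the quick responders to stress and contraction. Over the 5356 genes, 0.224% were called higher. ATF3, a stress-induced transcription factor, stood at 1.67 ± 0.48 (limma adjusted p = 0.0669). USF2, a transcription factor of E-box sequences, had signals of 384, 349.6 and 524 in coconut oil barrows, against 198, 105 and 243 in beef tallow barrows and rose by 1.26 ± 0.29 (limma adjusted p = 0.0362). CUL4A, a scaffold of ubiquitin ligases, gave 3328, 3533 and 3439 in coconut oil barrows, against 890.04, 1960.1 and 1804 in beef tallow barrows. Neither gene's groups overlapped, and CUL4A rose by 1.23 ± 0.25 (limma adjusted p = 0.0303). It was the 1 member that passed of 32 ubiquitin ligase and proteasome genes, against 0.224% of the 5356 genes called higher. Of the 32, 29 had positive differences, against 41.8% of the 5356 genes. The list's median was 0.20, or 0.42 after median centring and 0.09 with quantile normalization. UNC45B, a chaperone that folds muscle myosin, was 4412, 2511 and 2698 in coconut oil barrows, against 1172, 1433 and 1541 in beef tallow barrows, without overlap, and rose by 1.18 ± 0.29 (limma adjusted p = 0.0444). TEAD1, a transcription factor that binds muscle gene promoters, rose by 0.99 ± 0.25 (limma adjusted p = 0.0454), and HSPA9, the HSP70 of mitochondria, rose by 0.80 ± 0.21 (limma adjusted p = 0.0457), while its brightest probe set stood at 0.28.

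Among the other genes of the 15 largest rises, ZRANB1, a deubiquitinase, rose by 1.13 ± 0.24, and SAMD4A, a repressor of translation, by 1.02 ± 0.26. The protein kinase MAPK6, also called ERK3, rose by 0.97 ± 0.18, UBAP2L, a protein of stress granules, rose by 0.98 ± 0.22, and AKIRIN2, which helps bring proteasomes into the nucleus, rose by 0.96 ± 0.21. MAP4, which binds microtubules, rose by 0.83 ± 0.16, and PATL1, a factor of mRNA decay, rose by 0.82 ± 0.21. The 7 genes had limma adjusted p of 0.0254 to 0.0449, and in each the groups did not overlap. CBARP, which tunes calcium channel currents, rose by 1.13 ± 0.22 and CALM3, a calmodulin gene, by 0.83 ± 0.21 on 1 probe set each (limma adjusted p = 0.0265 and 0.0454), but the other probe set of CBARP stood at -0.24 and 3 of the 5 others of CALM3 were negative, so these are uncertain.

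CHRNA1, the alpha subunit of the acetylcholine receptor at the nerve-muscle junction, had signals of 272, 183 and 218 in coconut oil barrows, against 4089, 1806 and 421 in beef tallow barrows. As with COL1A2, pig 16 was highest and pig 24 nearest to the coconut oil barrows, with no overlap. CHRNA1 fell by 2.72 ± 0.53 log2 units (limma adjusted p = 0.0266). It was the single gene that passed of 4 tested nerve, junction and Schwann cell genes, against 2.00% of the 5356 genes called lower. Of the same list, S100B stood at -1.19 ± 0.34 (limma adjusted p = 0.0669). None of 10 slow fibre genes or 9 fast fibre genes passed by limma (medians 0.08 and -0.01, 0 in either list at an unadjusted p under 0.05). MYH7, the myosin of slow fibres, stood at 0.11 ± 0.23 (limma adjusted p = 0.832), with overlapping groups. Of 8 genes of satellite cells and myogenic factors none passed by limma and 3 had an unadjusted p under 0.05, against 21.2% of all probe sets. MEF2A, a transcription factor of muscle genes, stood at 0.71 ± 0.20 (limma adjusted p = 0.0635). CITED2, a coactivator modulator, was the single atrophy or FOXO target of 19 that passed, against 2.00% of the 5356 genes called lower. CITED2 fell by 1.66 ± 0.31 (limma adjusted p = 0.0254), while the atrophy ligase FBXO32 stood at 1.24 ± 0.64 (limma adjusted p = 0.274) without overlap. Neither IGF1, a growth factor of muscle, at -0.46 ± 0.28 (limma adjusted p = 0.358), nor any other of 10 growth and insulin genes passed on its brightest probe set, where 3 of them had an unadjusted p under 0.05. A dimmer probe set of IGF2, a fetal growth factor, fell by 0.96 ± 0.24 (limma adjusted p = 0.0454). RPL3, of the large ribosomal subunit, fell by 1.29 ± 0.28 (limma adjusted p = 0.0346) as the single call of 55 ribosomal protein genes. That is near the 2.00% of the 5356 genes called lower. Of the 55, 49 had differences below 0, against 58.2% of the 5356 genes. The list's median was -0.15 as deposited and turned to 0.07 after median centring. PDIA3, a protein folding enzyme, fell by 0.87 ± 0.22 (limma adjusted p = 0.0469). It was the single call of 27 chaperones on their brightest probe sets (median 0.08), against 2.00% of the 5356 genes called lower.

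C1QTNF3, a secreted relative of adiponectin, had signals of 301, 447 and 506 in coconut oil barrows, against 3502, 2167 and 1264 in beef tallow barrows. Every beef tallow barrow was above every coconut oil barrow, and C1QTNF3 fell by 2.38 ± 0.38 (limma adjusted p = 0.0254). DKK3, a secreted glycoprotein of the Dickkopf family, fell by 1.93 ± 0.43 (limma adjusted p = 0.0346). With SFRP1 it made up the 2 calls of 13 Wnt and TGF-beta genes on their brightest probe sets (median -0.31), against 2.00% of the 5356 genes called lower. CTNNB1 (beta-catenin) and FST, which blocks myostatin, passed on a dimmer probe set each. There CTNNB1 fell by 1.36 ± 0.31 and FST fell by 1.34 ± 0.31 (limma adjusted p = 0.0346 and 0.0362), while their brightest stood at 0.04 and -0.98. FNDC1, a protein with fibronectin domains, fell by 2.15 ± 0.41, and myocilin (MYOC), a secreted glycoprotein also made in muscle, fell by 2.02 ± 0.47 (limma adjusted p = 0.0264 and 0.0362). FAM46A, of a family of poly(A) polymerases, fell by 2.08 ± 0.47, and COPZ2, a coat protein of transport vesicles, fell by 1.94 ± 0.48 (limma adjusted p = 0.0359 and 0.0435).

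Of the 15 named genes that fell most, 4 had probe sets that were below the filter signal in at least 1 coconut oil barrow. COMP, a glycoprotein of cartilage and tendon, had signals of 63.3, 144 and 12.1 in coconut oil barrows, against 2198, 2603 and 216 in beef tallow barrows. In 2 of the 3 coconut oil barrows it was below the filter signal, and its difference of -4.44 ± 1.09 (limma adjusted p = 0.0435) became -3.30 when such values were raised to the filter. ST3GAL4, which adds sialic acid to glycans, gave 11.9, 58.1 and 12.8 in coconut oil barrows, against 297, 237 and 204 in beef tallow barrows. Its difference was -3.48 ± 0.77 (limma adjusted p = 0.0346), or -1.36 with the floor. STEAP1, a metalloreductase of the cell surface, and CYP39A1, a hydroxylase of oxysterols, were below the filter in all 3 coconut oil barrows too. Their differences were -3.23 ± 0.71 and -2.48 ± 0.55 (limma adjusted p = 0.0346 and 0.0346), and -1.01 and -0.66 with the floor. Over all 303 calls, 27 had all 3 coconut oil barrows below the filter signal and 54 had at least 1.

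**Figure D4:**
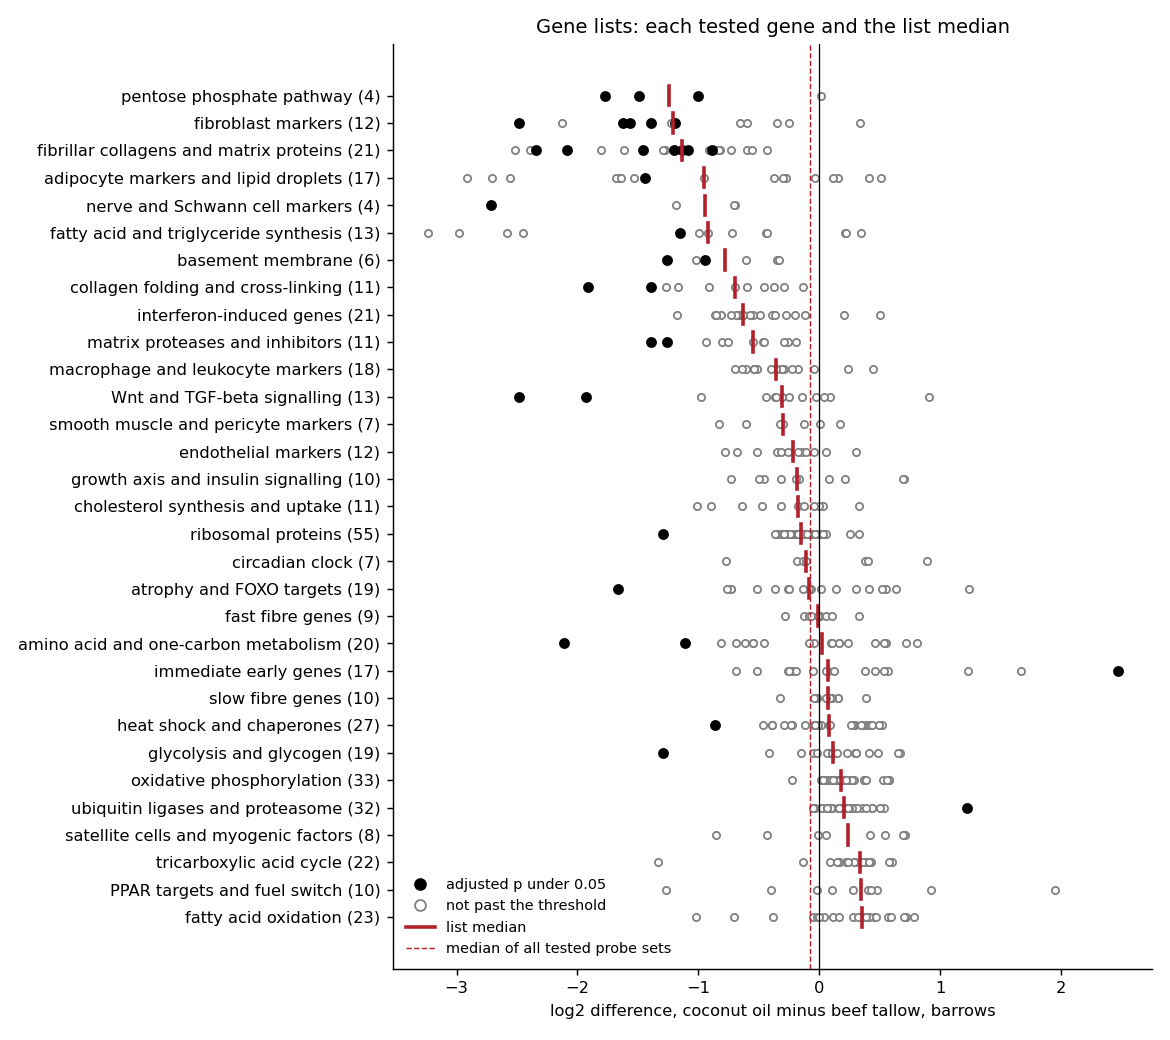
Log2 differences (x axis, coconut oil minus beef tallow in barrows) of the tested genes of each list (y axis, number of tested genes in brackets). Filled points passed an adjusted p of 0.05 and open points did not; short red lines are list medians and the dashed red line is the median of all probe sets, -0.07.

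The 3 beef tallow barrows were not alike. Over the 252 probe sets called lower, pig 24 was the beef tallow barrow nearest to the coconut oil barrows in 192 (76.19%), pig 21 in 34 (13.49%) and pig 16 in 26 (10.32%). The median SD of the called probe sets was 0.21 in coconut oil barrows and 0.36 in beef tallow barrows, against 0.23 and 0.28 over all probe sets tested. Pigs 16 and 21 were the 2 highest of all 24 pigs in 58 (23.02%) of the 252, against 2.01% of all probe sets. Since the calls were made on these same pigs, the shares and SDs of the called probe sets are a description.

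Barrows on olive oil and soybean oil lay, on the median, between the groups. These differences all use the same 3 beef tallow barrows. Over the 252 probe sets lower with coconut oil, the median difference from beef tallow barrows was -1.26 in coconut oil barrows, -0.93 in those fed olive oil and -0.58 in those fed soybean oil. Beef tallow barrows had the highest of the 8 group means in 218 (86.51%) of the 252, against 21.27% of all probe sets, and coconut oil barrows the lowest in 214 (84.92%), against 21.04%. Since the calls were made on these groups, the shares are a description. COL1A2 averaged 9.53 ± 0.14 with coconut oil, 10.14 ± 0.23 with olive oil, 10.02 ± 0.35 with soybean oil and 11.87 ± 1.57 with beef tallow (log2 units, SD, n = 3 each). FKBP10 averaged 7.48 ± 0.17 with coconut oil, 7.48 ± 0.30 with olive oil, 8.11 ± 0.42 with soybean oil and 9.39 ± 0.59 with beef tallow. The mean with beef tallow was above those with the 3 oils in both genes, with the widest spread. FABP4 averaged 12.35 ± 0.04 with coconut oil, 12.69 ± 0.42 with olive oil, 13.35 ± 0.09 with soybean oil and 13.80 ± 0.21 with beef tallow. With soybean oil, FABP4 was nearer to its level with beef tallow than to that with coconut oil. For the 51 probe sets that were higher, medians over beef tallow barrows were 1.02 in coconut oil barrows, 0.75 in those fed olive oil and 0.50 in those fed soybean oil. NR4A3 averaged 12.73 ± 1.02 with coconut oil, 13.19 ± 0.66 with olive oil, 11.96 ± 0.61 with soybean oil and 10.26 ± 0.11 with beef tallow, so that beef tallow barrows were lowest and the means of coconut oil and olive oil differed by less than the SD with coconut oil.

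The same fats were compared in gilts, with other pigs. No probe set passed in gilts by limma, with 682 (4.74%) at an unadjusted p under 0.05, against 303 calls and 3057 (21.2%) in barrows. The difference between the sexes itself passed in no probe set either, with 795 (5.52%) at an unadjusted p under 0.05, so no gene is shown to respond in barrows alone. Of the 303 called in barrows, 273 (90.1%) had the same sign in gilts, against 9165 (63.7%) of all probe sets tested. Their median absolute difference was 1.19 in barrows and 0.35 in gilts, 45 of them reached an unadjusted p under 0.05 in gilts, and 169 reached it for the difference between the sexes. The 303 were chosen by their size in barrows, so the smaller values in gilts are no measure of a sex difference. COL1A2 differed by -2.34 ± 0.50 in barrows and -0.58 ± 0.50 in gilts, and its difference between the sexes had a limma adjusted p of 0.854. FKBP10 differed by -1.91 ± 0.33 in barrows and -0.72 ± 0.33 in gilts, and FABP4 by -1.44 ± 0.38 in barrows and -0.74 ± 0.38 in gilts. NR4A3 differed by 2.47 ± 0.60 in barrows and 1.08 ± 0.60 in gilts. Each of these 4 genes thus had the same sign in both sexes and a smaller difference in gilts. FADS1 had opposite signs, with -1.15 ± 0.24 in barrows and 0.15 ± 0.24 in gilts (limma adjusted p of the difference between the sexes = 0.854). Among named probe sets the smallest p for the difference between the sexes were those of LOC100621559, MAP4, IFIT2, RPS6KC1 and FAM91A1, and none passed. LOC100621559, an uncharacterised gene, differed by 0.81 ± 0.35 in barrows and -1.84 ± 0.35 in gilts. MAP4 differed by 0.83 ± 0.16 in barrows and -0.17 ± 0.16 in gilts (limma adjusted p of the difference = 0.854). In both genes the signs of barrows and gilts were opposite. Likewise RPS6KC1, a kinase-related protein, differed by 0.65 ± 0.15 in barrows and -0.17 ± 0.15 in gilts, and FAM91A1, a protein of vesicle transport, by -0.72 ± 0.18 in barrows and 0.27 ± 0.18 in gilts. IFIT2, an interferon-induced gene, differed by -0.66 ± 0.20 in barrows and 0.49 ± 0.20 in gilts on the probe set with the smallest p, and its other 2 probe sets stood at -0.21 and 0.13 in gilts.

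**Figure D5:**
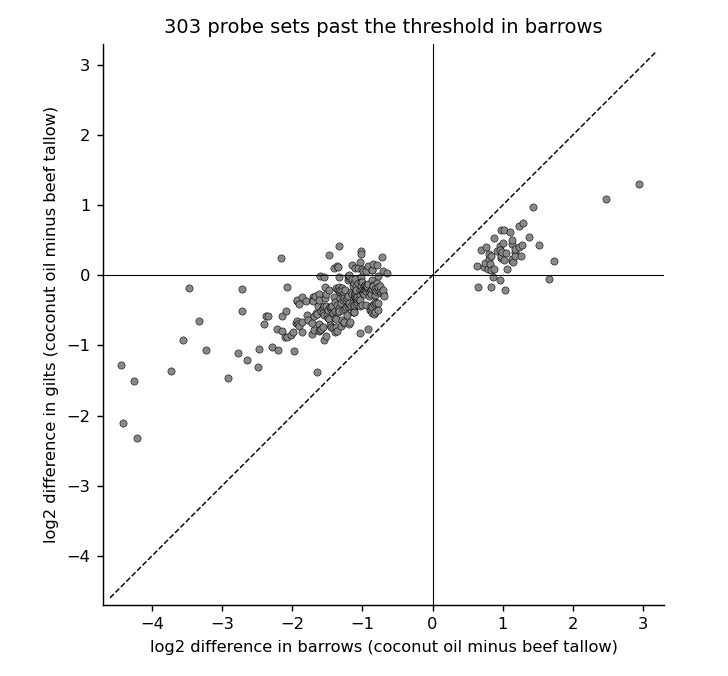
Log2 differences (coconut oil minus beef tallow) of the 303 probe sets called in barrows, in barrows on the x axis and in gilts on the y axis, with 1 point per probe set. The dashed line marks equal differences; 273 of the 303 have the same sign, and most points lie nearer to 0 in gilts.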

How the data were processed

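One Affymetrix array per pig was used, 24 in all. The deposited values are probe set signals, a linear intensity, and per the labels' protocols RNA was extracted with TRIzol. The labels do not name the summarisation. The mean after trimming 2% at each end was 500.1 to 500.2 on every array, so the arrays had been scaled to a common mean. Signals became log2(signal + 1), and 14399 of 23999 probe sets other than 124 controls were tested, those with a mean signal at or above the 40th percentile. The lmFit and eBayes functions of limma 3.58.1 (R 4.3.3) fitted 8 group means over all 24 arrays, with two-sided tests and Benjamini-Hochberg adjusted p under 0.05 in each of 3 tests: the fats in barrows, in gilts, and the difference between the sexes. On simulated data of the barrow comparison with 14399 probe sets, it recovered 48% of changes of 1 log2 unit and 94% of changes of 2, with 11 false calls. Whether these figures hold for the measured arrays was not tested. There the median SD over all probe sets tested was 0.23 in coconut oil barrows and 0.28 in beef tallow barrows.

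Symbols came from the platform annotation (10069 probe sets with 1 symbol, 198 with several and 13732 with none), and 9961 of the 10069 matched a RefSeq gene of Sscrofa11.1, used for names alone. Gene lists used the brightest probe set of each gene, and their members, the tests and the lists were chosen with earlier results of these data known. The text names the 15 largest rises and decreases with a symbol, the 4 smallest p of each list as examples, 16 genes fixed by name, and the 5 smallest p of the difference between the sexes. FN1, DPT, MFAP5, COL3A1, PRRX1, PDGFRB, LUM, CFD, CTNNB1, CKM and EIF1AY fall outside it and were chosen after their values were seen or as markers. Precision rests on 3 pigs per group, since arrays give no counts. No array was left out. Alternatives were other filters, quantile or median scaling, a pseudocount of 16, fewer arrays, other models of the spread and each pig left out in turn.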

Additional observations from a re-analysis of the deposited data

How the results depend on the processing

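The number of calls in barrows, 303, moved by over 1.5 times under several settings. It was 0 with no signal filter (3579 at an unadjusted p under 0.05) and 94 with quantile normalization. With the 12 barrow arrays alone it was 678, with the 6 arrays compared alone 6, and with array weights 623. A fit of 1 probe set per named gene called 170 of 5356 genes, against 119 of the same genes in the fit as reported. Of settings added after the data were seen, leaving out pigs 11, 12 and 16, whose arrays correlated least with the others, gave 3, leaving out pigs 11 and 12 gave 880, and a filter on the mean of log2 values gave 298. The rest gave 325 to 405. Leaving out each of the 24 pigs in turn gave 0 to 754 calls, with the widest moves outside the 6 barrows for gilts, at 754, 499, 184 and 175 when pigs 12, 7, 10 and 6 were dropped. In gilts, no filter and array weights gave 1 call each, and leaving out pigs gave 0 to 1. The difference between the sexes had 1 call with array weights and 0 to 0 with pigs left out. Of the 69 genes named in the text as called, 41 lost the call with quantile normalization, 19 with median centring, 69 without pigs 15, 16, 20, 21 or 23, and 7 without pig 24, and none changed sign. The genes CPT1B, MYH7, PDK4 and RPIA, near 0 and not called, changed sign. So did the brightest probe set of CTNNB1, at -0.11 with quantile normalization, -0.05 with array weights, -0.20 without pigs 11, 12 and 16, and -0.20 (pig 16) to 0.17 (pig 21) with single pigs left out. RPIA stood at -0.03 with quantile normalization. With single pigs left out, RPIA ranged from -0.07 (pig 24) to 0.10, PDK4 from -0.09 (pig 15) to 0.29, with -0.02 for pig 21, CPT1B from -0.07 (pig 21) to 0.54, and MYH7 from -0.08 (pig 21) to 0.25. With each of the 6 barrows left out, the matrix list's median lay between -1.30 and -0.92, that of the adipocyte list between -1.12 and -0.78, and that of the fatty acid oxidation list between 0.13 and 0.46. The causes of these changes were not tested. No paired analysis was possible because the pig numbers are running numbers and the groups share none. Signals give no detection call, so depth could be judged from the filter signal alone.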

Other observations

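Further genes that fell lay outside the rule for named genes and were chosen after their values were seen. QSOX1, which forms disulfide bonds in secreted proteins, had signals of 291, 282 and 416 in coconut oil barrows, against 2058, 1597 and 575 in beef tallow barrows, and fell by 1.93 ± 0.36 log2 units (SE, limma adjusted p = 0.0254). The groups did not overlap, and pig 24 was again the lowest beef tallow barrow. KDELR3, a receptor that returns chaperones to the endoplasmic reticulum, fell by 1.62 ± 0.38, and GPX7, a peroxidase that aids disulfide formation there, fell by 1.11 ± 0.22 (limma adjusted p = 0.0362 and 0.0275). DSE and CHST14, which make dermatan sulfate, the sugar chain of decorin, fell by 1.19 ± 0.30 and dropped by 0.83 ± 0.21 (limma adjusted p = 0.0449 and 0.0458). Asporin (ASPN), a small proteoglycan related to decorin, fell by 1.51 ± 0.38 (limma adjusted p = 0.0444).

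Receptors and enzymes of signalling were also among the decreases. AGTR1, the type 1 receptor of angiotensin II, had signals of 1052, 567 and 644 in coconut oil barrows, against 2209, 2092 and 1371 in beef tallow barrows, without overlap. It fell by 1.35 ± 0.30 log2 units (limma adjusted p = 0.0346). MAOA, which breaks down monoamines, fell by 1.10 ± 0.26 (limma adjusted p = 0.0381). ENPP2, which makes lysophosphatidic acid, fell by 1.52 ± 0.35, and ENPP1, which makes pyrophosphate, fell by 1.09 ± 0.23 (limma adjusted p = 0.0362 and 0.034). FGF2, a growth factor for fibroblasts and muscle precursors, was below the filter signal in all 3 coconut oil barrows and fell by 1.60 ± 0.32 (limma adjusted p = 0.0275), or fell by 0.83 with values below the filter raised to it. On the rising side, EIF3A, a subunit of a translation initiation factor, gave 8407, 8652 and 8288 in coconut oil barrows, against 4146, 5589 and 5541 in beef tallow barrows, and rose by 0.74 ± 0.18 (limma adjusted p = 0.042).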
